A study of Mus musculus with 35 samples.

Results

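Sbsn, Dmkn, Krtdap, Calml3, Calm4 and Calm5 are 6 genes of stratified epithelium that lie in 2 gene clusters, and their levels were read in 35 total RNA-seq libraries of sorted mouse keratinocytes. The members were the rows carrying these 6 names in the table of each library: 6 of 53715 names in the 18 back skin tables and 6 of 49585 names in the 17 tables of tail skin, palate and tongue. All 35 libraries came from mice of the C57BL/6J strain, 2 months old, with the genotype K5-tTA/pTRE H2B-GFP. In these mice the keratin 5 promoter, which is active in basal keratinocytes, drives a doxycycline-repressed activator that in turn drives a fusion of histone H2B to GFP. All groups received doxycycline in the chow, for 2 weeks for skin and 10 days for oral tissue, so that GFP was diluted with each division. Label-retaining cells (LRC), named slow-cycling in the study, were set against non-label-retaining cells (nLRC), named fast-cycling. Both classes were sorted from the basal layer of tongue (2 and 2 libraries), palate (2 and 2), tail skin (3 and 3) and back skin (3 and 3), and from back spinous cells (3 and 3). Unsplit groups were the bulge of the hair follicle in tail skin (3 libraries) and back skin (3) and the granular layer of back skin (3). The labels do not say that replicates came from separate mice, so that a p-value reflects no more than the scatter of these libraries, which may be technical.

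Sbsn (suprabasin), Dmkn (dermokine) and Krtdap (keratinocyte differentiation-associated protein) encode secreted proteins made by keratinocytes that have left the basal layer. The cluster is known as a stratified-epithelium secreted peptide locus. Suprabasin is a substrate of transglutaminases, the enzymes that crosslink the cornified envelope. Calml3, Calm4 and Calm5 encode relatives of calmodulin, the calcium sensor that binds calcium through EF-hand loops and then binds other proteins. The human product of CALML3 is an epithelial calmodulin-like protein that binds the unconventional myosin X, and mouse Calm4 and Calm5 are also named Scarf and Scarf2, for skin calmodulin-related factor. Calcium rises from the basal to the granular layer of the epidermis and drives keratinocyte differentiation, which is the setting in which these genes are usually studied.

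The positions were taken from the GENCODE annotation of the mm10 build, the build named in the submitters' processing notes. Sbsn (ENSMUSG00000046056.15) occupies chr7:30751471-30756134, Dmkn (ENSMUSG00000060962.12) chr7:30763756-30781063 and Krtdap (ENSMUSG00000074199.7) chr7:30787896-30791097, all on the plus strand. Gaps of 7621 and 6832 bases separate the 3 genes, in that order. Calml3 (ENSMUSG00000063130.4) occupies chr13:3802896-3804316 on the minus strand, Calm4 (ENSMUSG00000033765.5) chr13:3837757-3838673 and Calm5 (ENSMUSG00000099269.3) chr13:3854173-3854761 on the plus strand. Calml3 and Calm4 are 33440 bases apart, and Calm4 and Calm5 are 15499 bases apart.

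**Figure D1:**
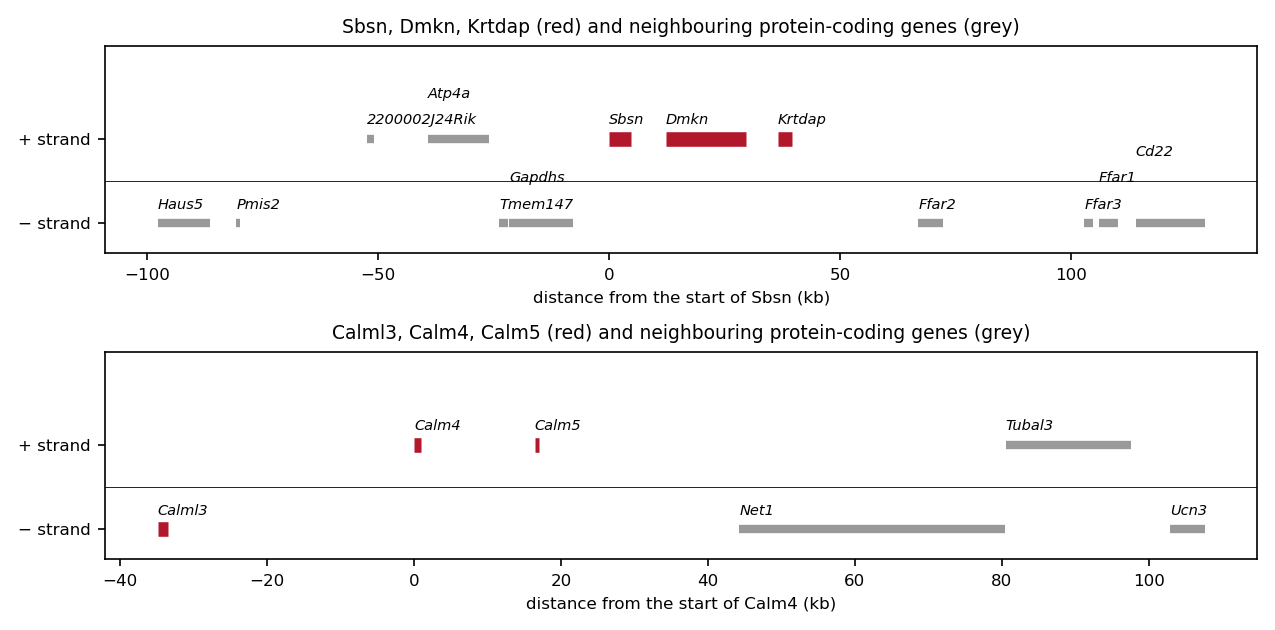
Map of the suprabasin cluster (top) and the calmodulin-like cluster (bottom) with the protein-coding genes within 100 kb, drawn to scale by strand; the x axis gives the distance in kb from the start of Sbsn or of Calm4. The 3 genes of the upper cluster lie side by side on the plus strand, and Calml3 lies on the strand opposite to Calm4 and Calm5.

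The promoters of Sbsn, Dmkn and Krtdap are shown because these neighbours were called higher at both outward steps in back skin (by read counts, spinous classes averaged). Each is the RefSeq window of 300 bases (build GRCm38.p6), 5′ to 3′ on the gene's strand. The window runs from 250 bases before to 50 bases after the annotated start. RefSeq windows matched 5 of the 6 members. Capitals mark matches to TGANTCA, the motif of AP-1, a factor family with a known role in keratinocyte differentiation.
Sbsn promoter, chr7:30751221-30751520: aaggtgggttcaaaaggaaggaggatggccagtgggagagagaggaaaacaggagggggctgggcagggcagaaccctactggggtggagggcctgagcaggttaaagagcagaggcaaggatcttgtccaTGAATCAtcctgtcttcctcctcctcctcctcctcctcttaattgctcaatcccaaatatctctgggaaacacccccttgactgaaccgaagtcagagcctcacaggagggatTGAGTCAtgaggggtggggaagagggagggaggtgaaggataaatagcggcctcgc
Dmkn promoter, first start, chr7:30763506-30763805: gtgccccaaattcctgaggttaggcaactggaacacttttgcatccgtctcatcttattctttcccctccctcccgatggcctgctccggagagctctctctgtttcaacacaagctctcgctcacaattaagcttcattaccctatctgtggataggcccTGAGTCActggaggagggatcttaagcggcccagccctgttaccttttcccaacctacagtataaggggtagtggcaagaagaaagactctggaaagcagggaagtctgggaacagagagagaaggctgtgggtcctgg
Krtdap promoter, chr7:30787655-30787954: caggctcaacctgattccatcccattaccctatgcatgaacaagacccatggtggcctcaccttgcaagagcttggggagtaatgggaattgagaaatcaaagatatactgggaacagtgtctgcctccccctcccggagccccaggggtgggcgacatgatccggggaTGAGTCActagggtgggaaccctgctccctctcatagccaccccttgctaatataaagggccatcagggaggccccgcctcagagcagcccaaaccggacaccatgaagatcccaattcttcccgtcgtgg
All 4 windows of these 3 genes held the motif, including the window of a second Dmkn start that is not printed, whereas 7.81% of all 32817 promoter windows of the table held it. The Sbsn window held 2 matches, TGAATCA 119 bases and TGAGTCA 6 bases before the start. The first Dmkn window and the Krtdap window each held TGAGTCA, 89 and 81 bases before their starts. Searches on both strands for GGGNGTGG (KLF factors, in 17.6% of all windows) and AACNGGTT (grainyhead-like factors, in 2.08%) found no match in these windows. Krtdap also held a TATAAA box (in 13.6% of all windows) 30 bases before its start. A match is a description of the letters and was not tested for binding.

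The promoters of Calm4 and Calm5 are shown because they are nearly the same sequence, while the levels of the 2 genes differed between epithelia. The capital marks the 1 base that differs over the 256 bases that the windows share when shifted by 44 bases (Calm4 positions 45 to 300 against Calm5 positions 1 to 256, counted from 1 at the 5′ end of each window).
Calm4 promoter, chr13:3837507-3837806: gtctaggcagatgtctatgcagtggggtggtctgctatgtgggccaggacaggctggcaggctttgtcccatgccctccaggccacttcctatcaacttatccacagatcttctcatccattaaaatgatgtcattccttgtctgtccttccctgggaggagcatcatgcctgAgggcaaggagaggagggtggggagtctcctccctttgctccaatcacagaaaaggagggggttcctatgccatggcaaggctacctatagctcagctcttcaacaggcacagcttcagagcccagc
Calm5 promoter, chr13:3853923-3854222: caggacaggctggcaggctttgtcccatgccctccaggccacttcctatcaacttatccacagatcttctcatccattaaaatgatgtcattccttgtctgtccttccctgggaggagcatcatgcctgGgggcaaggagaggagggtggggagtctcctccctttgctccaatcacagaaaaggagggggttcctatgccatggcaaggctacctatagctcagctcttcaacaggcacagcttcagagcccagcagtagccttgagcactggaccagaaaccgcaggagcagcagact
In the shared stretch 255 of 256 bases were identical, and the difference is A174G, at position 174 of the Calm4 window and position 130 of the Calm5 window. Neither window held TGANTCA. Both held TGATGTCA, a match to TGANGTCA (8.84% of all windows), a letter string close to the motif of cAMP-responsive factors. The coding sequences of Calm4 and Calm5 were 86.2% identical over 327 aligned bases, and 41 of the 540 words of 50 bases in Calm5 also occur in Calm4. Reads from such words could be split between the 2 genes, so their separate levels are uncertain to that extent. Calml3 shared 0 such words with Calm4 or Calm5, with coding identities of 62.8% and 68.0%.

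Each table gave raw reads per gene and TPM (a level per transcript length, scaled to the same sum in each library). Libraries of the tongue held 11847897 to 13034075 reads, those of the palate 11680595 to 15641556, those of the tail 8421582 to 14093720 and those of the back 9785944 to 20560481. A few libraries stood apart in scaling: the TMM factor, which corrects library size for composition, was 0.500 in back bulge replicate 2, 0.666 in palate nLRC replicate 2 and 0.779 in tail bulge replicate 3. Calls that changed without 1 of these libraries are given beside the result. Marker genes matched the labels in part. Cd34, a surface marker of bulge cells, had 71.4 to 693 TPM in the back bulge and 48.6 to 72.7 TPM in the tail bulge, against at most 0.37 TPM in back basal libraries. The 6 granular markers, detected in every group, summed to 296 to 1198 TPM in back granular libraries. This overlapped back spinous LRC (116 to 343 TPM) and back bulge libraries (20.3 to 402 TPM). Upper follicle markers summed to 12975 to 20346 TPM in back granular libraries. Krt79, a keratin of the follicle opening, made up 3819 to 6841 TPM of that sum. The tail, palate and tongue tables list partly different genes from the back tables and held 9.39% to 19.8% of reads in 4 features that collect ribosomal-like reads, against at most 1.18% in back libraries.

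Levels of the 6 genes spanned wide ranges over the 13 groups, and the groups with the highest level differed between the genes. Krtdap was the most abundant member, at 3589 ± 305 TPM in back granular cells (SD, n = 3), where it ranked 29 among all genes by mean TPM, and its lowest group mean was 21.7 TPM in palate LRC. The highest group mean was 165-fold the lowest for Krtdap, 108-fold for Calml3, 75.1-fold for Sbsn and 38.9-fold for Calm4. Dmkn varied least, 8.66-fold, and exceeded 100 TPM in every library. Calm5 was the only member with libraries at 0 reads, 5 of 35. Each count of 0 allows up to 3 reads.

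Sbsn, Dmkn, Krtdap and Calm4 shared the top 2 groups, back granular followed by back spinous LRC. The order beyond these differed. Calml3 was highest in the back bulge (851 ± 564 TPM, SD, n = 3), followed by tongue LRC and tail bulge, and lowest in back basal LRC at 7.88 ± 4.82 TPM. Calm5 was highest in back spinous LRC (163 ± 60.7 TPM, SD, n = 3) and nearly as high in back basal LRC (148 ± 14.8 TPM). Neighbours in these orders often overlapped: of 12 adjacent pairs of groups, the library values overlapped in 8 for Sbsn, 11 for Dmkn, 9 for Krtdap, 8 for Calml3, 8 for Calm4 and 12 for Calm5. Summed over the 6 genes, 0.714% to 0.765% of all TPM fell to them in back granular libraries, against 0.0332% to 0.0650% in palate libraries.

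**Figure D2:**
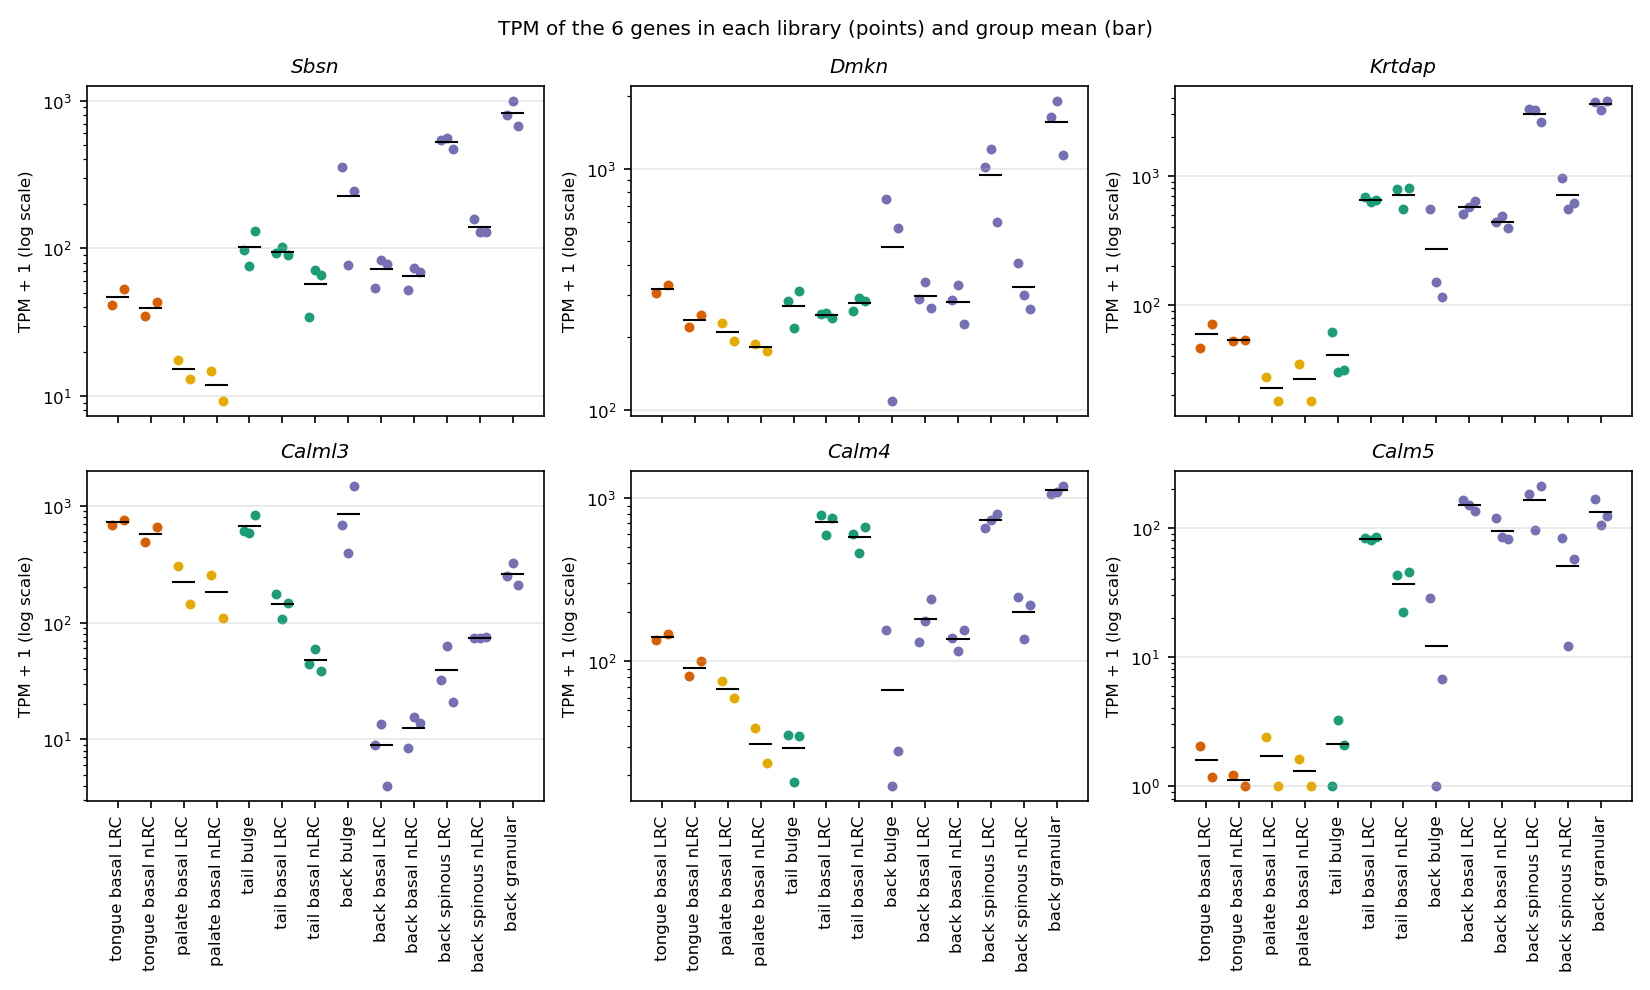
TPM plus 1 of each gene (log scale) in each of the 35 libraries, by group and coloured by tissue; points are libraries and bars are group means. Sbsn, Dmkn, Krtdap and Calm4 peak in back granular and back spinous LRC libraries, Calml3 peaks in bulge and tongue libraries, and Calm5 is at or near 0 in oral and tail bulge libraries.

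The layers of back skin are the textbook setting of these genes. With the spinous label classes averaged, 5 of the 6 were called higher by counts at each step outward. For Dmkn, Krtdap and Calm4 neither label class alone gave a call at both steps, as set out below. Spinous cells (mean of LRC and nLRC) were higher than basal cells for Sbsn, Dmkn, Krtdap, Calml3 and Calm4, and granular cells were higher than spinous cells for the same 5 genes. Calm5 had no call in either step. The background, counted in either direction as everywhere below, was 9.07% of 16574 genes called in spinous against basal cells and 4.01% in granular against spinous cells, in edgeR's quasi-likelihood test at a Benjamini-Hochberg adjusted p under 0.05, the test used throughout.

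Sbsn had 539, 555 and 470 TPM in spinous LRC libraries and 157, 127 and 128 TPM in spinous nLRC libraries, against 53.1, 82.5 and 77.3 TPM in basal LRC and 51.5, 72.5 and 67.8 TPM in basal nLRC libraries. No spinous library overlapped a basal one. The rise was 3.90-fold (log2 1.96 ± 0.17, SE, adjusted p = 1.0e-05). In bulk samples such a difference in level cannot tell more expressing cells from more RNA per cell. Calml3 showed the largest step of the 6, 5.45-fold (log2 2.45 ± 0.34, adjusted p = 0.000227), from a low base: it had 19.9 to 73.7 TPM in spinous libraries and 2.99 to 14.4 TPM in basal libraries. The rises of Krtdap, Calm4 and Dmkn were 2.90-, 2.39- and 1.89-fold (adjusted p = 0.00149, 0.00701 and 0.00386). By limma on log2(TPM + 1) and on log2(TPM + 0.1), Dmkn and Calm4 lost their calls. Calm5 was lower by 1.33-fold with an adjusted p of 0.698, its library values overlapping widely.

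Between granular and spinous cells Sbsn had 796, 993 and 676 TPM in granular libraries, each above the highest spinous library (555 TPM), and the rise over the mean of the spinous classes was 3.09-fold (log2 1.63 ± 0.19, adjusted p = 0.00048). Calml3 rose 4.91-fold (log2 2.30 ± 0.36, adjusted p = 0.00202), to 247, 322 and 209 TPM in granular libraries. Dmkn rose 2.89-fold and Calm4 2.93-fold (adjusted p = 0.00105 and 0.00949). Krtdap rose 2.48-fold with an adjusted p of 0.0232, and this call was lost when any of 7 single libraries was left out (adjusted p up to 0.0943). Without granular replicate 3, Calm4 also lost its call (adjusted p = 0.0511). Upper follicle markers moved with this comparison as a sum, at 12975 to 20346 TPM in granular libraries. The sum was 1063 to 3369 TPM in spinous LRC and 3692 to 4068 TPM in spinous nLRC libraries. Lrig1 of that list was highest in spinous nLRC libraries, at 220 to 261 TPM. It had 149 to 176 TPM in granular and 80.5 to 92.9 TPM in spinous LRC libraries. The part of these markers in the result was not tested.

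Other differentiation genes moved the same way. Of a list of 30 spinous and granular genes 28 were tested, and 11 rose and 0 fell in spinous against basal cells, with a median log2 change of 1.12 against 0.01 over all genes. Sprr1a, a cornified envelope precursor, Lypd3, a membrane protein of suprabasal cells, and Elovl4, an elongase of very long fatty acids, had the smallest p, with log2 changes of 3.40, 1.13 and 1.58. In granular against spinous cells 11 of 28 rose again and 0 fell, Sprr1a (log2 3.47), Ivl (2.71), which encodes involucrin, and Casp14 (1.48), a protease of cornification, leading. Basal layer genes went down: 12 of 15 fell in spinous cells and 8 of 15 in granular cells. Among the S100 genes, another family of calcium-binding proteins, 1 of 9 tested fell in spinous cells (S100a6, log2 -1.06) and 0 of 9 changed in granular cells.

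The steps were also read within each label class, and the test of the difference between the classes follows below. Within LRC alone, spinous cells exceeded basal cells by log2 2.80 ± 0.25 for Sbsn, 2.37 ± 0.39 for Krtdap, 1.92 ± 0.39 for Calm4, 1.65 ± 0.26 for Dmkn and 2.20 ± 0.48 for Calml3 (SE), all past the threshold. Within nLRC alone Sbsn (1.13 ± 0.23) and Calml3 (2.69 ± 0.47) passed and the other 4 did not. Granular cells exceeded spinous nLRC by log2 2.51 ± 0.24 for Sbsn, 2.41 ± 0.40 for Calm4, 2.30 ± 0.39 for Krtdap, 2.27 ± 0.27 for Dmkn and 1.74 ± 0.44 for Calml3. Against spinous LRC alone Calml3 passed, at 2.85 ± 0.46 (adjusted p = 0.00697), and the other 5 did not, with 0.74 ± 0.23 for Sbsn (adjusted p = 0.184).

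Compared directly, spinous LRC held more mRNA of 4 members than spinous nLRC, against 15.5% of all genes called. Krtdap had 3270, 3211 and 2602 TPM in spinous LRC libraries against 969, 550 and 618 TPM in spinous nLRC libraries, 3.96-fold higher (log2 1.99 ± 0.38, adjusted p = 0.00222). Sbsn was 3.40-fold higher (log2 1.76 ± 0.24, adjusted p = 0.000158). The classes did not overlap for either gene. Calm4 had 653, 734 and 798 TPM in LRC against 245, 136 and 220 TPM in nLRC libraries and was 3.28-fold higher (adjusted p = 0.0065, but 0.0528 without spinous nLRC replicate 2). Dmkn was 2.77-fold higher (adjusted p = 0.00132, but 0.0782 by limma on log2(TPM + 1)), at 602 to 1205 TPM in LRC and 260 to 406 TPM in nLRC libraries.

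Calml3 went the other way in this layer, with 31.5, 62.5 and 19.9 TPM in spinous LRC libraries and 72.5, 72.1 and 73.7 TPM in spinous nLRC libraries. The ranges did not overlap, but the fall of 2.16-fold (log2 -1.11 ± 0.44) had an adjusted p of 0.106. Calm5 had 182, 94.7 and 211 TPM in LRC and 82.0, 11.1 and 56.7 TPM in nLRC libraries (log2 1.61 ± 0.59, adjusted p = 0.0796). With the replicate number as a block, which pairs these libraries, both passed (Calml3 log2 -1.20, adjusted p = 0.0235; Calm5 log2 1.74, adjusted p = 0.0203). Calm5 also passed without back bulge replicate 2 (log2 1.66, adjusted p = 0.0192), and neither passed on log2(TPM + 1) (adjusted p = 0.237 for Calml3 and 0.171 for Calm5).

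Of the differentiation list, 13 of 28 were higher and 0 lower in spinous LRC, with a median log2 of 1.16 against -0.01 over all genes, led by Lypd3 (1.64), Casp14 (1.54) and Evpl (1.45), which encodes envoplakin. Basal layer genes were lower in 3 of 15 cases, Itgb1, Krt14 and Itga3. S100a6 (log2 -2.23) and S100a1 (-2.93) were lower among 9 S100 genes. Markers of other cells moved with the label too. The 6 sebocyte markers summed to 633 to 656 TPM in spinous LRC and 3242 to 7234 TPM in spinous nLRC libraries, Scd1, a desaturase abundant in sebaceous glands, making up 2126 to 5194 TPM in the nLRC. The 4 spinous layer markers summed to 23545 to 39900 TPM in LRC and 4383 to 9772 TPM in nLRC libraries. The spinous nLRC thus overlapped the basal layer, at 5712 to 7120 TPM in basal LRC and 4340 to 5257 TPM in basal nLRC. Basal layer markers summed to 26740 to 35485 TPM in spinous nLRC, below the 54647 to 84049 TPM of back basal libraries. The part of these marker differences in the result was not tested.

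In the basal layer of back skin no difference between the label classes was detected for these genes. None of the 6 passed the test between basal LRC and nLRC (0.235% of all genes did), none had an unadjusted p under 0.05 in edgeR, and DESeq2 and limma on log2(TPM + 1) also called 0. Krtdap had 506, 571 and 641 TPM in basal LRC libraries against 441, 486 and 397 TPM in basal nLRC libraries, without overlap and with a log2 difference of 0.31 ± 0.37. Calm5 likewise did not overlap, at 163, 149 and 133 TPM in LRC and 118, 83.4 and 81.6 TPM in nLRC libraries (log2 0.60 ± 0.57).

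Tested as an interaction, the LRC effect was larger in the spinous than in the basal layer for Sbsn, by log2 1.67 ± 0.33 (adjusted p = 0.0346), against 0.392% of all genes with such a difference. Dmkn and Krtdap had like values of 1.47 ± 0.37 and 1.68 ± 0.53 that missed the threshold (adjusted p = 0.0886 and 0.172). With the replicate block Dmkn passed as well (adjusted p = 0.0395). The Sbsn call was lost when any single basal or spinous library was left out, with values of 1.39 to 1.85 and adjusted p of 0.0552 to 0.145, and on log2(TPM + 1) (adjusted p = 0.366). Without back bulge replicate 2, which is in neither layer, Sbsn, Dmkn and Krtdap passed (adjusted p = 0.0197 for Dmkn and 0.0384 for Krtdap).

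**Figure D3:**
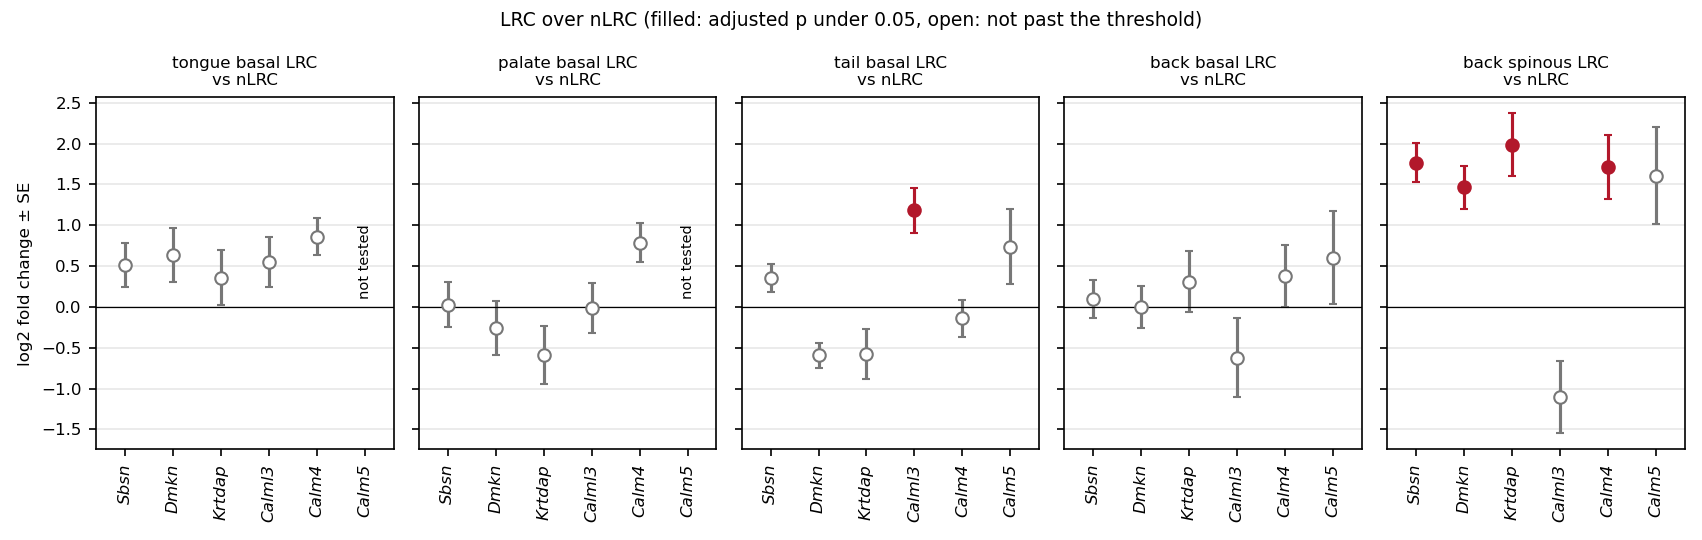
Log2 fold change of LRC over nLRC (points, bars are SE) for each gene in 5 epithelia; filled points have an adjusted p under 0.05. Of the 6 genes 4 are higher in spinous LRC, Calml3 alone is higher in tail LRC, and no gene passes in back basal, palate or tongue cells.

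In the basal layer of tail skin 1 member was called between the label classes. Calml3 had 175, 106 and 146 TPM in tail basal LRC libraries against 43.0, 58.8 and 37.8 TPM in tail basal nLRC libraries, with no overlap. It was 2.27-fold higher in LRC (log2 1.18 ± 0.28, adjusted p = 0.0395), against 4.60% of all genes called. This call was lost without any 1 of 6 libraries (adjusted p 0.0547 to 0.124), among them tail bulge replicate 3, which is in neither class. Dmkn had 248, 250 and 239 TPM in tail LRC libraries and 256, 290 and 281 TPM in tail nLRC libraries, and its log2 change of -0.59 ± 0.15 (adjusted p = 0.058) passed with the replicate block (-0.58, adjusted p = 0.0115). On log2(TPM + 1) the change of Dmkn was -0.16 (adjusted p = 0.605). Sbsn and Calm5 did not overlap either, at 89.5 to 100.5 TPM in LRC and 33.3 to 69.9 TPM in nLRC for Sbsn, and 79.0 to 83.4 TPM in LRC and 21.4 to 44.2 TPM in nLRC for Calm5. Neither passed (adjusted p = 0.244 and 0.363).

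Krt15, of the bulge list, and upper follicle markers moved with the tail label. Bulge markers summed to 1615 to 3100 TPM in tail LRC and 333 to 609 TPM in tail nLRC libraries, nearly all of it Krt15, while Cd34 was at most 0.17 TPM in both. Krt15 is not particular to the bulge here, with 5905 to 12775 TPM in back basal libraries, where Cd34 was at most 0.37 TPM. Upper follicle markers summed to 435 to 800 TPM in LRC and 116 to 147 TPM in nLRC libraries. The part of these marker differences in the Calml3 result was not tested. Of 25 differentiation genes tested 2 were higher in tail LRC, Krt1 (log2 1.34) and the lipid transporter gene Abca12 (0.68), and 0 were lower. In the test of the LRC effect in tail minus back basal layers, edgeR called 0 of 6 members and 2.71% of all genes. At an unadjusted p under 0.05 there were 2, Calml3 (log2 1.78 ± 0.53, adjusted p = 0.0955) and Krtdap (-0.92 ± 0.36, adjusted p = 0.246). The share of all genes at that unadjusted threshold was not counted. DESeq2 and limma on log2(TPM + 1) each called 1, Calml3.

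In the bulge, the niche of hair follicle stem cells, members of the same cluster moved in opposite directions. In the back bulge Calml3 was 118-fold higher than in the basal layer (log2 6.89 ± 0.41, adjusted p = 2.1e-08), with 677, 394 and 1481 TPM in bulge libraries against 2.99 to 14.4 TPM in basal libraries. Every bulge library lay above every basal one. Its neighbours on chromosome 13 went down: Calm5 was 11.7-fold lower (log2 -3.55 ± 0.63, adjusted p = 0.000485) and Calm4 2.38-fold lower (log2 -1.25 ± 0.36, adjusted p = 0.0155). Calm5 had 54, 0 and 13 reads in the bulge libraries against at least 221 reads in each basal library. On chromosome 7 Sbsn was 3.83-fold higher (log2 1.94 ± 0.19, adjusted p = 1.7e-06) and Dmkn 1.74-fold higher (adjusted p = 0.0118). Krtdap was not called by counts (log2 -0.50 ± 0.33, adjusted p = 0.289).

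The back bulge libraries were uneven. Sbsn had 352, 76.4 and 245 TPM and Dmkn 747, 107 and 568 TPM, replicate 2 being lowest for both, whereas Krtdap and Calm4 were highest in replicate 1 (550 and 154 TPM). Without replicate 2 Krtdap was called lower (log2 -0.97, adjusted p = 0.0448). Without replicate 3 the calls of Dmkn (adjusted p = 0.0551) and Calm4 (0.0597) were lost. Differentiation marker sums varied in the same libraries, spinous markers from 460 to 4650 TPM, and endothelial and melanocyte markers reached 328 and 358 TPM. Against basal nLRC alone Calm4 was not called (adjusted p = 0.079). By limma on log2(TPM + 1) Dmkn was not called, while Krtdap was called lower. In all, 5 of 6 members were called by counts, against 26.3% of all genes.

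In the tail bulge Calml3 was again higher and Calm4, Calm5 and Krtdap were lower. Calml3 had 606, 582 and 836 TPM in bulge libraries against 37.8 to 175 TPM in tail basal libraries and was 8.96-fold higher (log2 3.16 ± 0.23, adjusted p = 6.1e-06). Calm4 had 34.6, 17.3 and 33.8 TPM in bulge libraries against 460 to 781 TPM in basal libraries and was 20.97-fold lower (log2 -4.39 ± 0.26, adjusted p = 1.9e-06). Krtdap was 15.2-fold lower (log2 -3.93 ± 0.33, adjusted p = 1.9e-05), at 61.4, 29.1 and 30.3 TPM in bulge libraries. Calm5 was lower by log2 -5.34 ± 0.64 (adjusted p = 0.000189), resting on 0, 12 and 2 reads in the bulge, with -4.60 without bulge replicate 1 and -7.42 without bulge replicate 2. These 4 genes showed no overlap between bulge and basal libraries. The share of all genes without overlap was not counted, here or in the other comparisons. Upper follicle markers summed to 1326 to 1767 TPM in tail bulge libraries against 435 to 800 TPM in tail LRC and 116 to 147 TPM in tail nLRC libraries. Krt79 of that list went the other way. It had 14.3 to 26.2 TPM in the bulge, 210 to 492 TPM in LRC and 38.7 to 59.2 TPM in nLRC libraries. Lrig1, of the same list, overlapped between the bulge (17.4 to 25.5 TPM) and LRC (20.3 to 26.5 TPM). Endothelial markers summed to 7.17 to 41.1 TPM in the bulge against at most 0.29 TPM in tail basal libraries, and the part of these cells in the result was not tested.

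The 2 other genes of the suprabasin cluster were not lower in the tail bulge. Sbsn had 97.1, 75.1 and 131 TPM in tail bulge libraries and was 1.51-fold higher than in basal cells (adjusted p = 0.0115), a call that was lost against basal LRC alone (log2 0.42, adjusted p = 0.111) and on the TPM scale. Dmkn showed a log2 change of 0.17 ± 0.13 (adjusted p = 0.38). Of all genes tested, 24.6% were called between tail bulge and basal cells. Of 25 differentiation genes tested 16 were lower and 0 higher in the tail bulge, with a median log2 of -1.39 against -0.01 over all genes, and Krt10 (-5.03), Casp14 (-4.90) and Krt1 (-5.06) had the smallest p. The back bulge was mixed, 8 of 28 lower and 3 higher. Of the S100 genes, 3 of 9 tested were higher and 0 lower in the back bulge, and 5 of 11 were higher and 1 lower in the tail bulge, where the median log2 was -0.12. Those with the smallest p were S100a4, S100a6 and S100a1 in both, higher by log2 6.49, 2.63 and 1.74 in the back and 4.18, 1.42 and 1.54 in the tail. The bulge and basal comparisons of back and tail used separate libraries and separate fits, and their difference was not tested.

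**Figure D4:**
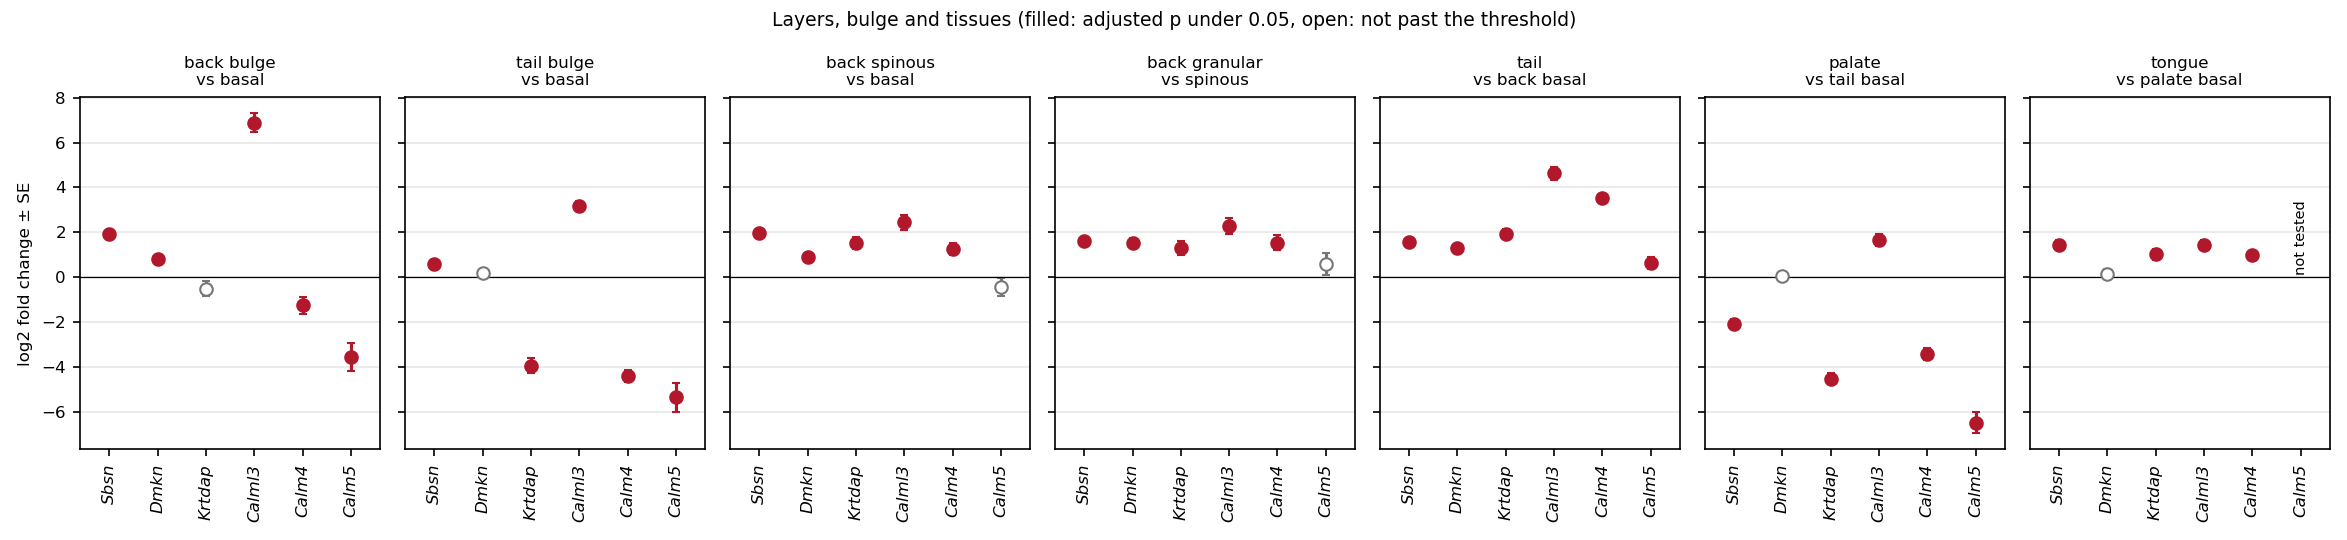
Log2 fold change (points, bars are SE) of each gene in 7 comparisons of layers, bulge and tissues, the first-named group over the second; filled points have an adjusted p under 0.05. Calml3 is higher in both bulges while Calm4 and Calm5 are lower there, and in palate against tail Dmkn alone is not called by counts. For tail against back, Dmkn and Calm5 turn to lower on the TPM scale, at -0.13 and -1.13.

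Krtdap, Calm4, Calm5 and Sbsn were lower in the basal layers of oral epithelia than of tail skin, and Calml3 was higher. In palate against tail skin Krtdap was 22.7-fold lower (log2 -4.50 ± 0.25, adjusted p = 8.0e-10), Calm4 10.6-fold lower (log2 -3.41 ± 0.25, adjusted p = 2.0e-08) and Sbsn 4.24-fold lower (log2 -2.09 ± 0.22, adjusted p = 1.6e-06). Krtdap had 26.5 and 16.98 TPM in palate LRC and 34.0 and 17.1 TPM in palate nLRC libraries, against 554 to 803 TPM in tail basal libraries. Calm5 had 9 and 0 reads in palate LRC and 4 and 0 reads in palate nLRC libraries, against at least 90 reads in each tail basal library (log2 -6.46 ± 0.48). Calml3 was 3.17-fold higher in palate (log2 1.66 ± 0.26, adjusted p = 9.8e-05; within LRC alone 1.08, adjusted p = 0.0527). In all, 4 members were lower and 1 higher, against 26.9% of the 17103 genes tested. Of 30 differentiation genes tested 17 were lower and 4 higher in palate, with a median log2 of -1.39 against -0.04 over all genes. The 4 spinous layer markers summed to 5087 to 5823 TPM in tail LRC and 1904 to 2865 TPM in tail nLRC libraries. Their sums were 83.8 to 138 TPM in palate and 125 to 156 TPM in tongue libraries. The part of these marker differences in the result was not tested.

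Dmkn was not called by counts. It had 191 to 227 TPM in palate LRC and 175 to 186 TPM in palate nLRC libraries, against 239 to 290 TPM in tail libraries, and its change by counts was log2 0.04 ± 0.17 (adjusted p = 0.899). On the log2(TPM + 1) scale limma gave -0.42 (adjusted p = 0.00758), so the direction depends on the scaling.

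In tongue against tail 4 members were called lower and 1 higher, against 28.6% of all genes. Of 30 differentiation genes tested 12 were lower and 8 higher in tongue, with a median log2 of -0.85 against -0.08 over all genes. Calml3 was 8.46-fold higher in tongue (log2 3.08 ± 0.26, adjusted p = 9.4e-08), with 687 and 758 TPM in tongue LRC and 484 and 654 TPM in tongue nLRC libraries. Krtdap was 11.3-fold lower and Calm4 5.32-fold lower. Calm5 fell to 5 and 1 reads in tongue LRC and 1 and 0 reads in tongue nLRC libraries (log2 -7.57 ± 0.54). Sbsn was 1.56-fold lower (adjusted p = 0.0263), a call lost within either label class alone and without any 1 of 4 libraries. These 2 comparisons share the tail libraries.

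Between the oral epithelia, tongue was higher than palate for Sbsn (2.74-fold, log2 1.45 ± 0.20, adjusted p = 0.0019), Calml3 (2.70-fold, adjusted p = 0.00385), Krtdap (2.03-fold, adjusted p = 0.0302) and Calm4 (2.01-fold, adjusted p = 0.00526), against 9.62% of 14923 genes called. Sbsn had 40.1 and 52.3 TPM in tongue LRC and 34.1 and 42.3 TPM in tongue nLRC libraries, against 8.21 to 16.6 TPM in palate libraries. Dmkn did not pass (adjusted p = 0.733) and Calm5 was too low to be tested. Within LRC alone the 4 calls held, and within nLRC alone 0 did, with changes of log2 0.55 to 1.21. Krtdap lost its call without any 1 of 5 libraries. In the tongue 7 of 24 differentiation genes were higher and 0 lower, led by Tgm1 (log2 2.35), a transglutaminase gene, Elovl4 (3.24) and Sptlc3 (3.74), a gene of ceramide synthesis. Oral keratinocyte markers summed to 10526 to 14172 TPM in tongue and 2569 to 6115 TPM in palate libraries.

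For the label classes of the oral epithelia, edgeR called 0 of the 5 members tested in palate and 0 of 5 in tongue. The background was 0% and 0.0067% of all genes. DESeq2 and limma on log2(TPM + 1) called 0 as well. The share of all genes at an unadjusted p under 0.05 in edgeR was not counted. Of the members, 1 was under it in each tissue, Calm4. It had 75.2 and 58.5 TPM in palate LRC against 37.8 and 22.7 TPM in palate nLRC libraries (log2 0.79 ± 0.24, adjusted p = 0.64), and 134 and 145 TPM in tongue LRC against 80.2 and 99.2 TPM in tongue nLRC libraries (log2 0.86 ± 0.23, adjusted p = 0.505). The classes, of 2 libraries each, did not overlap in either tissue.

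Tail and back basal layers could be compared only across tables that list partly different genes. By counts all 6 genes were higher in tail, against 58.3% of all genes called, but Sbsn, Dmkn and Calm5 were not called higher on the TPM scale. Calml3 had 37.8 to 175 TPM in tail basal libraries against 2.99 to 14.4 TPM in back basal libraries (24.7-fold by counts, log2 4.63 ± 0.28, adjusted p = 4.6e-10; log2 3.05 on the TPM scale). Calm4 had 460 to 781 TPM in tail against 115 to 239 TPM in back (11.4-fold by counts, log2 3.52 ± 0.21; 2.03 on the TPM scale). No tail library overlapped a back one for either. Krtdap was higher by log2 1.95 ± 0.18 by counts and by 0.44 on the TPM scale (adjusted p = 0.0173).

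For the other 3 the result depended on the scale. Sbsn was higher by log2 1.56 ± 0.19 by counts and by 0.09 on the TPM scale (adjusted p = 0.649). Dmkn was higher by 1.33 ± 0.16 by counts and lower on the TPM scale, at -0.13 (adjusted p = 0.212). Calm5 was higher by 0.65 ± 0.26 by counts and lower on the TPM scale, at -1.13 (adjusted p = 0.000151), and its call by counts was lost within either label class alone. The counts hold exon and intron reads, whereas TPM and RPKM rest on exon reads. The median over all genes was 0.07 by counts and -0.97 on the log2(TPM + 1) scale. RPKM summed over all genes was 329018 to 471315 in tail basal libraries and 171850 to 208305 in back basal libraries, and the part of this in the difference between scales was not tested.

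The levels of Calm4 and Calm5, whose promoters are shown above, stood in different ratios in different epithelia. In back basal libraries Calm5 and Calm4 were of the same order, 81.6 to 163 TPM for Calm5 and 115 to 239 TPM for Calm4. In tail basal libraries Calm5 had 21.4 to 83.4 TPM and Calm4 460 to 781 TPM. In tongue libraries Calm4 kept 80.2 to 145 TPM while Calm5 had at most 1.03 TPM. The RPKM of Calm5 divided by its reads per depth had a median of 1.32 in the back tables and 1.06 in the others, so levels of Calm5 in TPM are not on quite the same scale in both sets of tables. Gm40655, a gene that overlaps Calm4 and not Calm5, took at most 130 reads in a library of the back tables. It has no row in the other tables.

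**Figure D5:**
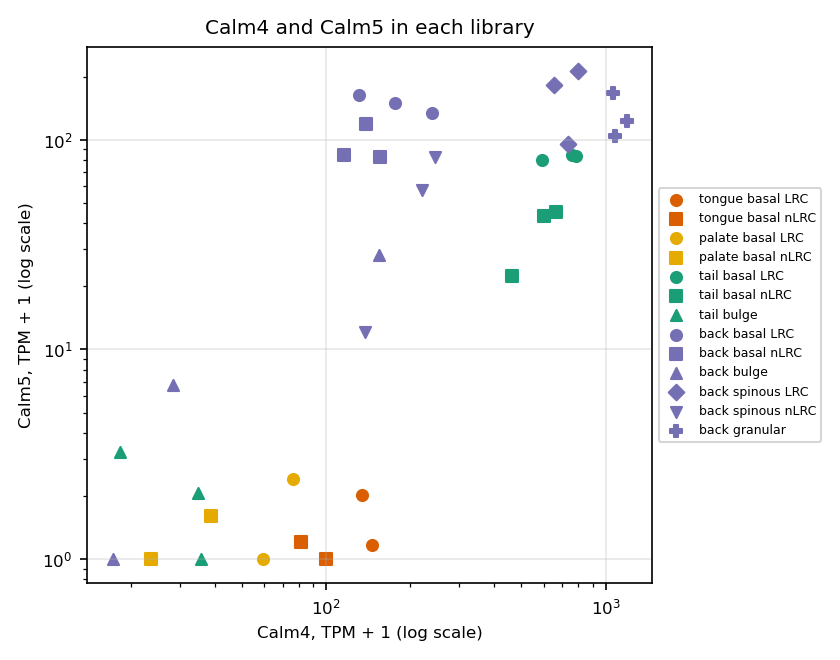
Calm5 against Calm4 in the 35 libraries, both as TPM plus 1 on log scales, coloured by tissue and shaped by group. Back basal libraries lie high on the Calm5 axis at moderate Calm4, while tongue libraries with 80.2 to 145 TPM of Calm4 lie near 0 for Calm5.

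Across the 35 libraries, which share tissues and tables and are not independent points, the members fell into different patterns. Sbsn and Dmkn had a Pearson r of 0.86 on log2(TPM + 1). Krtdap had r = 0.90 with Calm5, 0.85 with Calm4, 0.78 with Sbsn and 0.68 with Dmkn. Within the 18 back libraries these values were 0.67 with Calm5, 0.97 with Calm4, 0.76 with Sbsn and 0.79 with Dmkn, so the place of Calm5 in this order depended on the libraries taken. Within the 17 others they were 0.93, 0.93, 0.54 and 0.38, in the same order of genes. Calml3 had r between -0.68 (Calm5) and 0.04 (Dmkn) over all libraries, whereas within the back libraries it had 0.57 with Sbsn, 0.39 with Dmkn and -0.58 with Calm5.

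The genes most like each member, of 9238 with a mean TPM of at least 5, followed these patterns. For Krtdap they were Ggct (0.97), Krt10 (0.95), the suprabasal keratin of skin, and Casp14 (0.94), and for Calm5 Slc22a4 (0.96), a carnitine and ergothioneine transporter gene, Krt10 (0.95) and Krt1 (0.93), the partner of keratin 10. For Calm4 they were Dsc1 (0.89), a desmosomal cadherin of the upper epidermis, Endou (0.87) and Dapl1 (0.86). Calml3 was closest to Krt6a (0.90), a keratin of the follicle and oral epithelium, then to Lpgat1 (0.81) and Cald1 (0.80). Sbsn was closest to Sema4g, Sort1 and Camsap3 (0.92 to 0.93), and Dmkn to Agpat3, Sort1 and Itgb5 (0.91 to 0.93).

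The genes around the clusters were read in 9 comparisons, in which 4.01% to 28.6% of all genes were called. Tail against back was not among them. Of 10 protein-coding neighbours of the suprabasin cluster within 100 kb, 3 had a mean TPM of at least 1, Haus5, Tmem147 and Gapdhs, and of 3 around the calmodulin-like cluster 1 did, Net1. Over 9 comparisons, Haus5 and Net1 were never called. Tmem147, which lies before Sbsn, was called once, lower in spinous LRC (log2 -0.89, adjusted p = 0.0253). Gapdhs was called lower in palate and in tongue against tail (log2 -2.99 and -2.03), at levels of at most 1.69 TPM in those tissues. Tmem147os, an antisense gene of Tmem147 that overlaps Sbsn on the same strand, had 20 to 499 reads per library. Some reads of Sbsn may therefore not be told apart from it, and that part was not measured. In back basal libraries Tmem147os had 189 to 276 reads and Sbsn 507 to 1114 reads.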

How the data were processed

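Total RNA-seq libraries of FACS-sorted keratinocytes (35 libraries, 13 groups, SMARTer Stranded Total RNA-Seq Pico kit, per the labels' protocols) were deposited as 1 table per library. The deposited tables hold raw read counts per gene ("Total gene reads"), TPM and RPKM, per the file headers. TPM and RPKM were made by the authors, per the file headers, and TPM is proportional to RPKM within a library. The build was mm10 per the submitters' processing notes; of the aligner, read counter, gene models and strand setting, the sources used here name none. Groups came from the sample labels.

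Counts were tested with edgeR 4.0.16 (quasi-likelihood, TMM, R 4.3.3) after a filter on low counts (minimum count 10, minimum total 15), in 4 fits: back (18 libraries), tail (9), palate and tongue (8) and all basal libraries (20). Benjamini-Hochberg adjustment ran over all genes tested, 16574, 14993, 14923 and 17103, with a threshold of 0.05. Log2 fold changes are given with their SE. Alternatives were median-of-ratios scaling, no filter, DESeq2 1.42.0, limma 3.58.1 on log2(TPM + 1) and log2(TPM + 0.1), a replicate block, each label class alone, the groups of a contrast alone and leaving out each library. The edgeR fits were tested on simulated data.

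The named genes were the 6 members, up to 3 genes per list with the smallest p, the 3 genes most correlated with each member (mean TPM of at least 5) and protein-coding neighbours within 100 kb with a mean TPM of at least 1. The members and lists were chosen with earlier results of these data known. The results of 1 gene list are not reported here. Replicate numbers paired the back layers (correlation of same-numbered deviations 0.109 to 0.328 over 10 pairs of groups) and tail LRC with nLRC (0.326 to 0.585), by the rule that every pair exceeds 0.1.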

Additional observations from a re-analysis of the deposited data

Results flagged for a closer look

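The LRC effect on Sbsn differed between layers of back skin, with the log2 ratio of LRC to nLRC larger by 1.67 in the spinous than in the basal layer (edgeR interaction, adjusted p = 0.0346). This call was lost without any single basal or spinous library (adjusted p 0.0552 to 0.145) and by limma on log2(TPM + 1) (adjusted p = 0.366). Other differences were not tested and rest on every LRC library lying on opposite sides of every nLRC library in 2 epithelia. Each class had 2 libraries in tongue and palate and 3 in tail and back, few for such a reading. The share of all genes separated in this way was not counted. For Dmkn the log2 ratio of mean TPM of LRC to nLRC was 0.44 in tongue, 0.22 in palate, -0.17 in tail and 1.55 in spinous cells of the back. The differences were 0.60 for tongue minus tail, 0.38 for palate minus tail and -1.71 for tail minus back spinous. For Calml3 the ratio was 0.34 in tongue, 1.61 in tail and -0.94 in back spinous cells, with differences of 1.28 for tongue minus back spinous and 2.55 for tail minus back spinous. By counts, edgeR gave log2 changes for Dmkn of 0.63 in tongue, -0.26 in palate, -0.59 in tail and 1.47 in back spinous cells, so the direction in palate, and with it the opposite directions in palate and tail, depended on the scaling. For Calml3 the values by counts were 0.55 in tongue, 1.18 in tail and -1.11 in back spinous cells.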

How the results depend on the processing

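Over all alternatives, 1355 of 1520 values of single members kept their direction and side of the threshold, 88 lost their call, 30 gained one and 6 reversed with a call under at least 1 of the settings compared. Another 41 values, of results not called under either setting, changed sign, at -0.45 to 0.33. The 6 reversals were limma values on log2(TPM + 1) and log2(TPM + 0.1): Dmkn (-0.13 and -0.13) and Calm5 (-1.13 and -1.15) in tail against back, and Dmkn in palate against tail (-0.42 and -0.42). The cause was not tested. The number of members called moved by over 1.5 times as follows. In spinous against basal cells, 5 became 3 on log2(TPM + 1), 3 on log2(TPM + 0.1) and 2 within nLRC alone. In granular against spinous cells, 5 became 2 on log2(TPM + 1), 1 on log2(TPM + 0.1) and 1 against spinous LRC alone, and 3 to 5 with single libraries left out (3 without granular replicate 3). In back bulge against basal cells, 5 became 3 to 6 with single libraries left out (3 without bulge replicate 3). For the LRC effect in spinous minus basal cells, 1 became 2 with the replicate block, 2 by DESeq2, 0 and 0 on the TPM scales, 3 with the contrast's groups alone and 0 to 3 with single libraries left out (3 without back bulge replicate 2). For tail LRC against nLRC, 1 became 3 with no filter, 2 with the replicate block, 2 by DESeq2, 0 with the contrast's groups alone and 0 to 1 with single libraries left out. In tongue against palate, 4 became 0 within nLRC alone. In tail against back, 6 became 3 on log2(TPM + 0.1) and 4 on log2(TPM + 1). Smaller moves were 3 to 6 around 4 in spinous LRC against nLRC, 4 to 5 around 5 in tail bulge against basal cells and in tongue against tail, and 4 to 6 around 5 in palate against tail. For the LRC effect in tail minus back, 0 became 2 with no filter, 1 by DESeq2, 1 on log2(TPM + 1) and 0 to 1 with single libraries left out. The replicate block added the calls of Calml3 and Calm5 in spinous LRC against nLRC and of Dmkn in tail LRC against nLRC and in the spinous minus basal LRC effect, and changed no other call of a member.

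Counts over all genes moved more. Between the lowest and highest alternative, leave-outs aside, calls ran from 379 to 2736 around 1504 in spinous against basal cells and from 46 to 2350 around 664 in granular against spinous cells. They ran from 832 to 3895 around 2571 in spinous LRC against nLRC. The median change of all genes in tail against back was 0.07 by TMM, 0.68 by DESeq2 and -0.97 on log2(TPM + 1), so directions there hold relative to that shift.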
